A study of Homo sapiens with 2 samples.

Results

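Chondroitin sulfate synthesis was followed through 10 genes in SW480, an established line from a human colorectal adenocarcinoma, with CSGALNACT1 as the lead gene. The 10 genes are XYLT1 and XYLT2, CSGALNACT1 and CSGALNACT2, CHSY1, CHSY3 and CHPF, and the sulfotransferases CHST3, CHST11 and CHST15. They were found by their symbols in the platform annotation, which gave each of them exactly 1 probe set, 10 of the 33297 on the array and 10 of the 18417 named genes. CSGALNACT1 was chosen by its measured difference between these arrays, which is therefore given as a description, and the other 9 genes were added for their place in the pathway.

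The study has 2 samples, each 1 Affymetrix array with biotin-labelled target from total RNA. The first sample is SW480 stably transfected with the pTarget mammalian expression vector carrying the coding sequence of TFAP2E, an AP-2 family transcription factor, and the second is SW480 with the empty vector. Both were kept under Geneticin for weeks, and single clones were picked and checked for TFAP2E expression, per the labels. The labels do not say how many clones an array stands for, so a difference between clones and one that goes with the introduced sequence cannot be told apart. With 1 array per group no value has an error and no test was possible. Differences were formed on the log2 scale, TFAP2E array minus empty vector array, and 2-fold (1 on the log2 scale) and 1.5-fold served as rules of size. A gene counted as tested, in the sense of being compared, when at least 1 of its values reached 5.55, the median of all probe sets, and a lower value is called dim. This filter is not a detection limit.

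The TFAP2E probe set itself read 6.81 on the TFAP2E array and 6.77 on the empty vector array (0.04). The introduced sequence is thus not seen in this value. Of all tested genes 82.8% differed by more in either direction. The region that its probes target is not stated. The overexpression is therefore not borne out by this value, and the directions below rest on the labels alone. Of 12 colorectal epithelial markers 9 were above the filter on the TFAP2E array and 8 on the empty vector array, where VIL1 was dim, and KRT20, CDH17 and GPA33 were dim on both. EPCAM read 11.14 in TFAP2E cells and 11.20 in empty vector cells (-0.06), and KRT8 read 12.07 in TFAP2E cells and 12.28 in empty vector cells (-0.20). VIL1 (1.28) and CDH1 (-0.71) were the markers past 1.5-fold. Of the chondrocyte markers 6 of 8 were dim on both arrays, as were 8 of 10 fibroblast, 5 of 7 endothelial and 7 of 8 leukocyte markers. Among all 18417 named genes 6869 were dim on both. The summed level of the chondrocyte list was 8.19 on the TFAP2E array and 8.21 on the empty vector array (log2), and that of the fibroblast list was 8.13 in TFAP2E cells and 8.16 in empty vector cells. The endothelial list summed to 7.85 in TFAP2E cells and 7.87 in empty vector cells and the leukocyte list to 7.47 in TFAP2E cells and 7.45 in empty vector cells.

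Chondroitin sulfate is a sulfated chain of alternating N-acetylgalactosamine (GalNAc) and glucuronic acid, built in the Golgi on a core protein. Synthesis starts with a short linker of xylose, galactose and glucuronic acid that heparan sulfate shares. The first GalNAc on this linker commits the chain to chondroitin sulfate, whereas a first N-acetylglucosamine commits it to heparan sulfate. The chain is then lengthened and sulfated at defined positions, and in colorectal tumours chondroitin sulfate proteoglycans are well known from the stroma.

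CSGALNACT1, 1 of the 2 enzymes that add the first GalNAc, was lower in TFAP2E cells, and the other 9 genes differed by -0.16 to 0.22 only. Its probe set (8149574) read 4.56 on the TFAP2E array and 5.72 on the empty vector array, which is 2.24-fold lower (-1.17 on the log2 scale). This was rank 6 from the lowest of the 11548 genes tested. CSGALNACT1 entered only through the empty vector array, lay 0.174 above the filter there and was dim on the TFAP2E array. Counted only from its higher value down to the filter of 5.55, the fold was 1.13. This is no lower limit of the difference, as the filter is not a detection limit and neither value has an error. Fewer cells with the transcript and less of it per cell cannot be told apart in such bulk RNA.

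Across all tested genes the differences had a median of 0.04 and a standard deviation of 0.219, and 95% lay between -0.37 and 0.47. Among the 2828 genes whose mean level was within 0.5 of that of CSGALNACT1, dim genes included, 95% lay between -0.47 and 0.46. That CSGALNACT1 lay outside both follows from its selection by this difference and is no support for it. These ranges hold assay noise and real differences together, and the second was chosen after the data were seen.

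At the 2-fold rule 1 of the 8 members tested was lower (CSGALNACT1) and 0 were higher, where 0.113% of all tested genes were lower and 0.0866% higher. The count at 1.5-fold was the same, beside 0.606% lower and 0.892% higher of all tested genes. The rule used this contrast for CSGALNACT1, so nothing is read from its share. XYLT1 and CHSY3 were dim on both arrays and were not tested. Over all 10 members, CSGALNACT1 and the 2 dim genes included, 6 values were below 0 and 4 above, and their median was -0.07. Of all tested genes 39.5% were below 0, with a median of 0.04. CSGALNACT1 was chosen for its low value, so nothing is read from this count either.

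**Figure D1:**
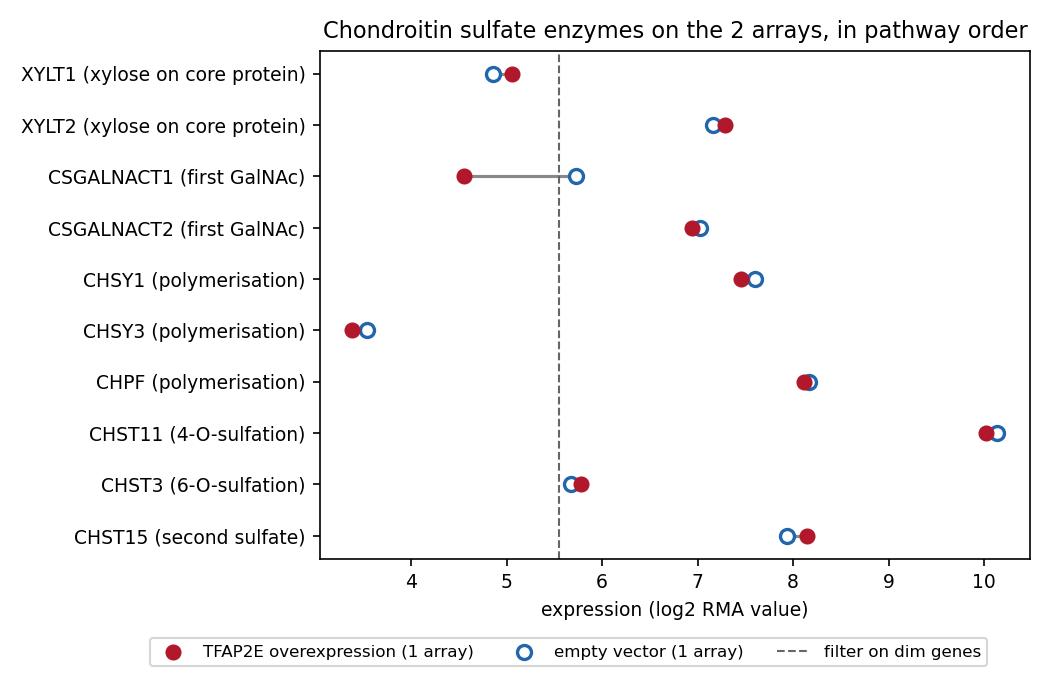
Level of the 10 chondroitin sulfate genes on each array (log2 RMA value, horizontal axis), listed from the start of the pathway to sulfation, with 1 filled point for the TFAP2E array, 1 open point for the empty vector array and a dashed line at the filter of 5.55. CSGALNACT1 lies at 4.56 on the TFAP2E array and 5.72 on the empty vector array, and the other 9 pairs of points lie within 0.22 of each other.

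XYLT1 and XYLT2 place the xylose on the serine of a core protein, the start of each chain. XYLT2 read 7.29 on the TFAP2E array and 7.16 on the empty vector array (0.13). XYLT1 read 5.05 in TFAP2E cells and 4.85 in empty vector cells, dim on both (0.20). Both values were slightly higher in TFAP2E cells and well inside the central range of all genes. The enzymes that complete the linker were alike in sign: the galactosyltransferases B4GALT7 (0.06) and B3GALT6 (0.08), the glucuronosyltransferase B3GAT3 (0.02), the xylose kinase FAM20B (0.04) and the xylose phosphatase PXYLP1 (0.20). Of the 6 tested linker genes 6 were above 0, against 59.2% of all tested genes, with a median difference of 0.07. With quantile normalization 5 of the 6 were above 0, beside 6243 of 11549 tested genes. With the loess trend removed 4 of the 6 were, beside 6022 of 11550 tested genes. This count of signs thus depends on the scaling, and the background moved with it. The linker median lay above that of all tested genes by 0.024 as deposited, 0.027 with quantile normalization and 0.023 with the loess trend removed. Such small values cannot be told from array-to-array noise without replicates.

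CSGALNACT2 is the close relative of CSGALNACT1 and catalyses the same step. Its probe set read 6.95 on the TFAP2E array and 7.03 on the empty vector array (-0.08). The difference of its relative was lower by a further 1.08 on the log2 scale (-1.08). Unlike CSGALNACT1, it was above the filter on both arrays.

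The chain is lengthened by CHSY1, CHSY3 and CHPF. CHSY1 carries both glycosyltransferase activities of polymerisation, and read 7.46 on the TFAP2E array and 7.60 on the empty vector array (-0.14). CHPF, the chondroitin polymerising factor that works together with the CHSY enzymes, read 8.11 in TFAP2E cells and 8.16 in empty vector cells (-0.05). CHSY3 read 3.39 in TFAP2E cells and 3.54 in empty vector cells, dim on both (-0.16). The fourth polymerisation gene, CHPF2, which was on the list of pathway genes and is no member, read 7.20 in TFAP2E cells and 7.34 in empty vector cells (-0.14).

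Besides CSGALNACT1, which was chosen for its low value, the 5 other genes for the first GalNAc and for polymerisation were lower in TFAP2E cells. Of these 5 the 4 tested had a median of -0.11. Of all tested genes 39.5% were below 0. The 4 stayed below 0 under each of the 3 other scalings that were tried, where their median was -0.14 to -0.08. These scalings move the values little, so the unchanged signs are no support. Each difference was under 0.219, the standard deviation over all tested genes, and without replicates such values cannot be told from array-to-array noise.

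Sulfation was mixed. CHST11, the main enzyme that sulfates GalNAc at its 4-O position, read 10.02 on the TFAP2E array and 10.14 on the empty vector array (-0.12). CHST3, which sulfates the 6-O position, read 5.78 in TFAP2E cells and 5.68 in empty vector cells (0.10). CHST15, which adds a second sulfate to GalNAc that already holds one and so makes the disulfated E unit, read 8.15 in TFAP2E cells and 7.93 in empty vector cells (0.22). This was the highest difference among the 10 genes, and 27.0% of all tested genes differed by more in either direction.

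The other chondroitin sulfotransferases spread more widely. UST, which sulfates uronic acid at its 2-O position, read 5.98 on the TFAP2E array and 5.48 on the empty vector array (0.50), where it was dim. CHST12, another 4-O enzyme, read 7.26 in TFAP2E cells and 7.58 in empty vector cells (-0.31). CHST13, also a 4-O enzyme, differed by 0.19 and CHST7, a 6-O enzyme, by 0.06. Of the 7 sulfotransferases, members included, 5 were above 0 and 2 below under each scaling tried, and 0 reached 1.5-fold. Of all tested genes 59.2% were above 0 and 1.5% reached 1.5-fold in either direction. In a list of this length a count of 0 is near that background. Of the enzymes that turn chondroitin into dermatan sulfate, the epimerases DSE (0.07) and DSEL (-0.33) were dim on both arrays, and the sulfotransferase CHST14 differed by -0.07.

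**Figure D2:**
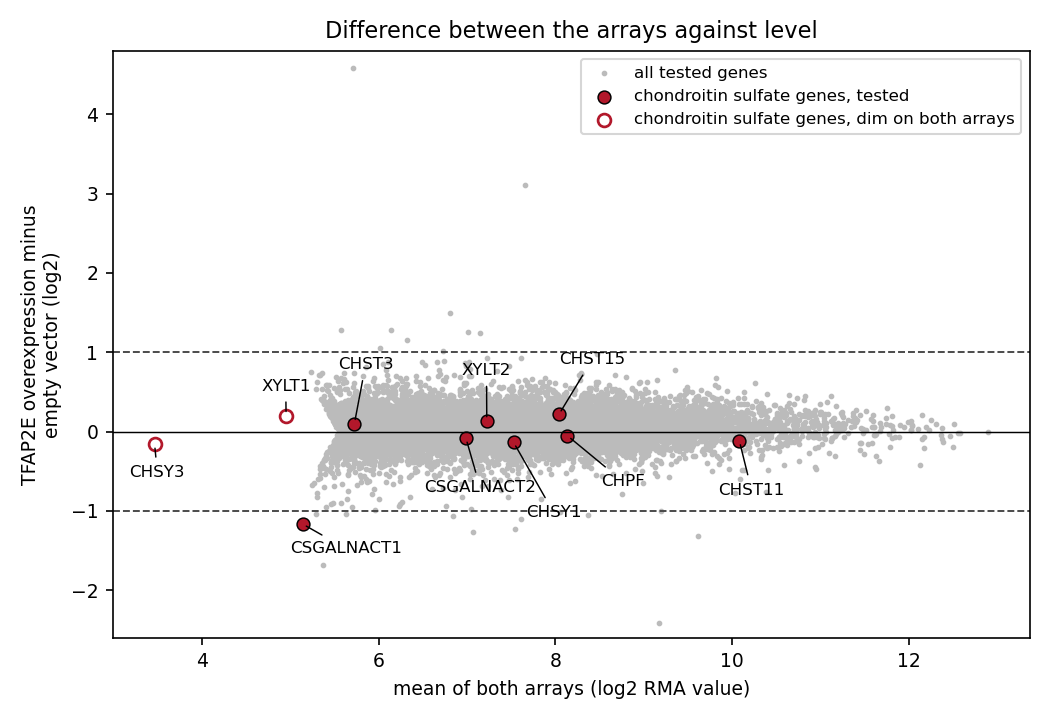
Difference between the arrays (TFAP2E overexpression minus empty vector, log2, vertical axis) against the mean of both arrays (log2 RMA value, horizontal axis) for the 11548 tested genes in grey, the 8 tested chondroitin sulfate genes as filled points and the 2 dim ones as open points. Dashed lines mark 2-fold, and CSGALNACT1 at -1.17 is the only 1 of the 10 beyond them.

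The promoter sequences of the pathway were examined for AP-2 sites because the introduced gene encodes an AP-2 factor. Windows of 300 bases, from 250 before to 50 after a transcript start, came from RefSeq (GRCh38.p14), and 12 windows were matched by symbol to 9 of the 10 genes, all but CSGALNACT1. The motifs searched were GCCNNNGGC and a longer form with 1 further N in the middle, each of which reads the same on both strands and may overlap the other. The windows shown are those of CSGALNACT2, the relative that shares its step with the lead gene, of CHSY1, the lowest of the other tested members, and of CHST15, the highest. They lie at chr10:43138195-43138494 (plus strand), chr15:101251999-101252298 (minus strand) and chr10:124093549-124093848 (minus strand), are written 5′ to 3′, and have motif matches in capitals.
CSGALNACT2: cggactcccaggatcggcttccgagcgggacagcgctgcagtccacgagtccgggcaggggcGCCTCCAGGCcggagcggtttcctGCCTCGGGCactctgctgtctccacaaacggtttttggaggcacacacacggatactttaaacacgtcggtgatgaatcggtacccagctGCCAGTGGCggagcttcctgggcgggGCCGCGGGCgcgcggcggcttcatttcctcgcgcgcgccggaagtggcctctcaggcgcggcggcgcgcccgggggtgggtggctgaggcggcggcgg
CHSY1: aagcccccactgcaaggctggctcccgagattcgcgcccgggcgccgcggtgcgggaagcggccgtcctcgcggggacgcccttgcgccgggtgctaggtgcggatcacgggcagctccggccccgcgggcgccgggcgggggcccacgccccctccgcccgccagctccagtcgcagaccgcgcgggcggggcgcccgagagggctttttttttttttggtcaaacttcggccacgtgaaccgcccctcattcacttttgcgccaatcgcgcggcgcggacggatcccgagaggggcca
CHST15: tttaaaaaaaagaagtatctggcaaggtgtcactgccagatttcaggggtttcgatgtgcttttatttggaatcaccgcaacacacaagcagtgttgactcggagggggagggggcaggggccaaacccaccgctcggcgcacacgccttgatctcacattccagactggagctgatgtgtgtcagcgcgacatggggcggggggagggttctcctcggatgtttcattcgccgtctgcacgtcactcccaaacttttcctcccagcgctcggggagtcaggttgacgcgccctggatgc

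The CSGALNACT2 window held 3 matches to GCCNNNGGC and 1 to the longer form, and its difference was -0.08. The CHSY1 window (-0.14) and the CHST15 window (0.22) held 0. Of the 12 windows of the pathway 6 held GCCNNNGGC, among them those of XYLT2, CHSY3, CHST11 and both of CHPF, and 3 held the longer form. Over all 35116 windows in the table these shares were 23.2% and 21.4%. Windows of the same gene are not independent, and by gene 5 of the 9 held either motif. The share by gene over all genes was not counted. The share of G and C was 70.3% for CSGALNACT2, 73.3% for CHSY1 and 56.7% for CHST15, and 11 of the 12 windows, all but that of CHST15, were above the median of 58.7% for all windows. A match is a string of letters and was not tested as a binding site.

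Genes for the supply of building blocks differed little. Of 14 tested genes for nucleotide sugars, their Golgi transporters and the sulfate donor PAPS, 11 were above 0 and 3 below, with a median of 0.07, beside 59.2% above 0 and a median of 0.04 for all tested genes. None of the 14 reached 1.5-fold, which 1.5% of all tested genes did in either direction, and a count of 0 in a list of this length is near that background. With the loess trend removed 8 were above 0 and 6 below, beside 6022 of 11550 tested genes above 0. The highest were BPNT1, a phosphatase that clears the used sulfate donor, at 7.33 in TFAP2E cells and 6.96 in empty vector cells (0.37), and GFPT1, the entry enzyme to hexosamine synthesis, at 9.97 in TFAP2E cells and 9.63 in empty vector cells (0.34). The lowest were the sulfate transporter SLC26A2 (-0.05) and the PAPS transporter SLC35B2 (-0.03). UGDH, which makes the glucuronic acid donor, differed by 0.09.

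Most of the classical core proteins that carry chondroitin sulfate were dim. Of 27 on the array 16 were, including versican (VCAN, with a difference of -0.22), aggrecan (ACAN, 4.76 on the TFAP2E array and 4.68 on the empty vector array), decorin (DCN, with equal values) and CSPG4 (4.58 in TFAP2E cells and 4.82 in empty vector cells). Among the 11 tested, 6 were above 0 and 5 below, with a median of 0.06. Of all tested genes 59.2% were above 0, with a median of 0.04, and 1.5% reached 1.5-fold in either direction. With the arrays centred on their medians 8 of the 11 core proteins were above 0 and 3 below. The background moved too, with 7557 of 11549 tested genes above 0 under that scaling. PTPRZ1, a receptor tyrosine phosphatase, was the only one past 1.5-fold, at 6.02 in TFAP2E cells and 5.42 in empty vector cells (0.61), and was dim on the empty vector array. Biglycan (BGN) was next at 0.12. The lowest were the TGF-beta co-receptor TGFBR3, at 5.41 in TFAP2E cells and 5.71 in empty vector cells (-0.30) and dim on the TFAP2E array, and APLP2, at 10.83 in TFAP2E cells and 11.04 in empty vector cells (-0.21). CD44, which can carry the chain in epithelial cells, differed by 0.06.

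Heparan sulfate shares the linker and competes for it. EXTL3, which adds the first N-acetylglucosamine and so stands opposite CSGALNACT1 at the branch, read 7.23 on the TFAP2E array and 7.23 on the empty vector array (0.0024). The polymerases EXT1 (-0.07) and EXT2 (-0.14) also lay inside the central range. Over the 14 tested heparan sulfate enzymes 7 were above 0 and 6 below, with 1 equal and a median of 0.00, and 0 reached 1.5-fold. Of all tested genes 59.2% were above 0 and 1.5% reached 1.5-fold in either direction. With the loess trend removed 6 of the 14 enzymes were above 0 and 8 below, beside 6022 of 11550 tested genes above 0. The highest were the sulfotransferases HS3ST3A1 (0.30) and NDST1 (0.22), the lowest HS3ST6 (-0.17) and EXT2. Of the 8 tested heparan sulfate core proteins 6 were below 0, with a median of -0.11, from glypican GPC4 (-0.30) and agrin (AGRN, -0.22) to SDC3 (0.06) and GPC2 (0.16). Of all tested genes 39.5% were below 0, with a median of 0.04. With the arrays centred on their medians 5 of the 8 core proteins were below 0, beside 3991 of 11549 tested genes. Without replicates such signs cannot be told from array-to-array noise.

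Lysosomal breakdown genes lay on both sides of 0. Of 12 tested 8 were above 0, 3 below and 1 equal, with a median of 0.05, beside 59.2% above 0 and a median of 0.04 for all tested genes. With quantile normalization 6 of the 12 were above 0 and 6 below, beside 6243 of 11549 tested genes above 0. The arylsulfatase ARSB (0.01) and GALNS (-0.01), which take sulfate off GalNAc, differed little. The iduronate sulfatase IDS was highest at 9.52 in TFAP2E cells and 9.07 in empty vector cells (0.45), followed by SUMF2 (0.28). HGSNAT, of heparan sulfate breakdown, was lowest at 6.15 in TFAP2E cells and 6.54 in empty vector cells (-0.39), followed by IDUA (-0.05). Transferases of related chemistry that act elsewhere were also examined. The 5 tested sulfotransferases of other chains ran from CHST8 (-0.08) and CHST10 (-0.02) to CHST2 (0.07) and CHST1 (0.27), and the 3 tested GalNAc transferases of glycolipids and N-glycans from B4GALNT4 (-0.07) to B4GALNT3 (0.10) and B4GALNT1 (0.11).

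**Figure D3:**
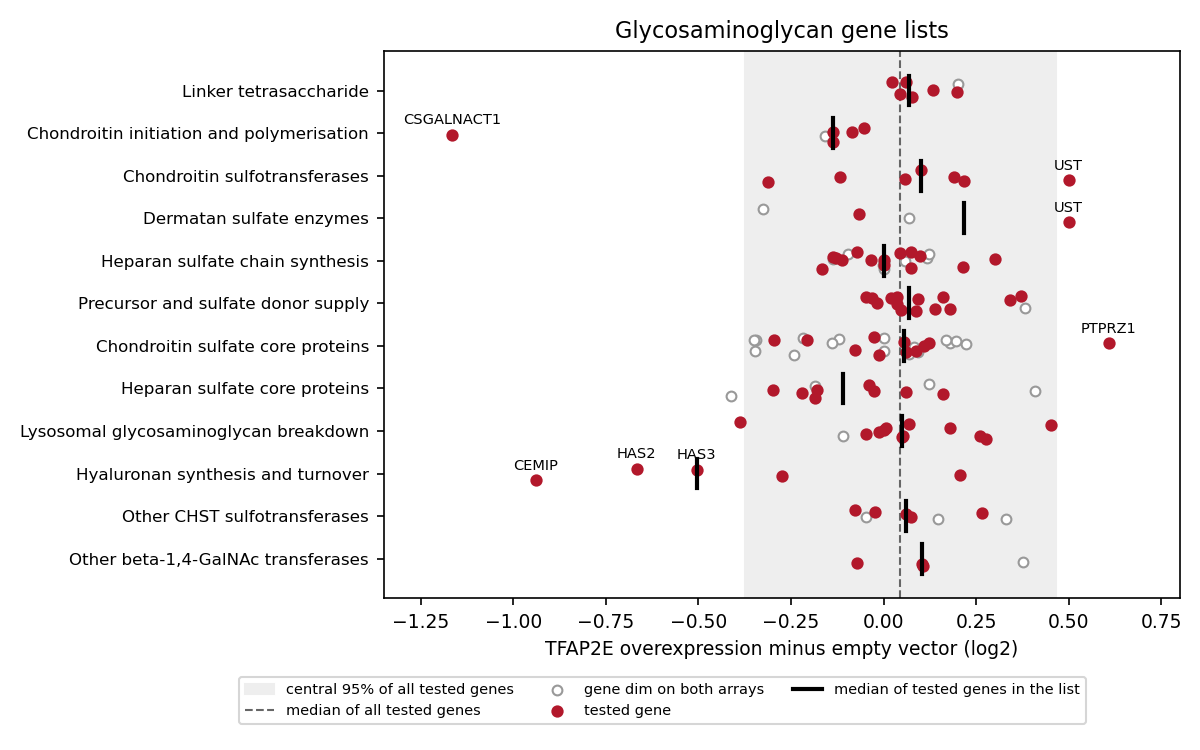
Difference between the arrays (TFAP2E overexpression minus empty vector, log2, horizontal axis) for each gene of 12 glycosaminoglycan lists, filled where tested and open where dim on both arrays, with a black bar at the median of the tested genes of a list. The grey band is the central 95% of all tested genes, -0.37 to 0.47, and the tested genes farthest outside it, CSGALNACT1, CEMIP, HAS2, HAS3, UST and PTPRZ1, are named.

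Neither direct neighbour of CSGALNACT1 in gene order shared its difference. In the gene order of the RefSeq table the nearest genes with a probe set were SH2D4A, PSD3 and NAT2 on the first side and INTS10, LPL and SLC18A1 on the second. SH2D4A, its direct neighbour, read 8.53 on the TFAP2E array and 8.60 on the empty vector array (-0.07). INTS10, an Integrator subunit on the second side, read 8.59 in TFAP2E cells and 8.59 in empty vector cells (0.0044). LPL, lipoprotein lipase, read 5.552 in TFAP2E cells and 6.002 in empty vector cells (-0.45), which is also outside the central 95% of tested genes. PSD3 read 6.62 on both arrays, and NAT2 (0.47) and SLC18A1 (0.21) were dim on both. None of these 6 neighbours reached 1.5-fold, which 1.5% of all tested genes did in either direction. For 6 genes this is near that background.

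**Figure D4:**
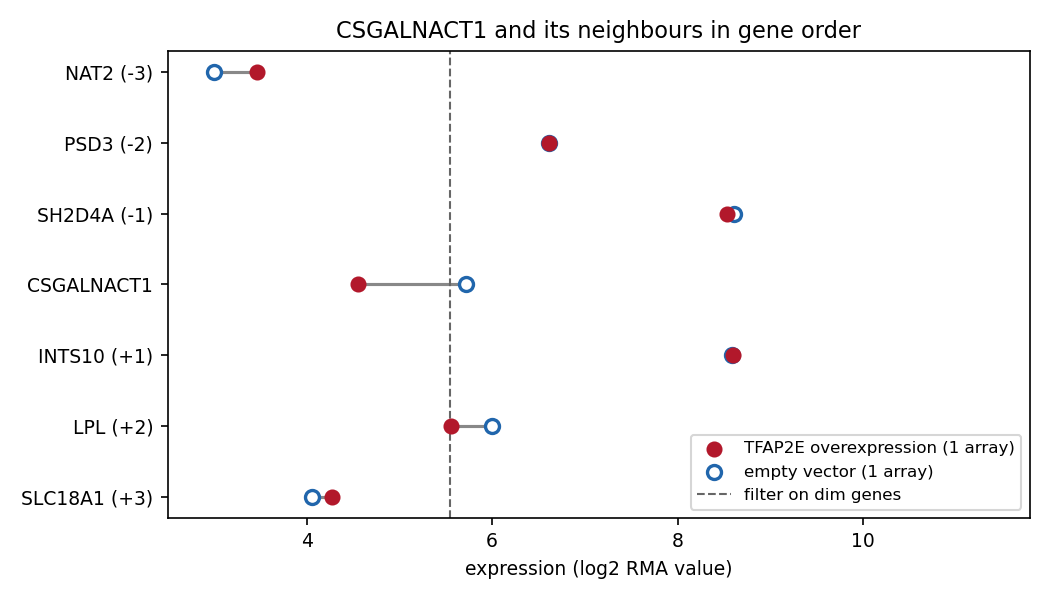
Level of CSGALNACT1 and of the 3 named genes on either side in gene order (log2 RMA value, horizontal axis), filled points for the TFAP2E array, open points for the empty vector array, and a dashed line at the filter of 5.55. CSGALNACT1 differs by -1.17 and LPL by -0.45, while SH2D4A and INTS10 on its immediate sides differ by -0.07 and 0.0044.

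The tested genes closest to CSGALNACT1 in their difference over the 2 arrays were GABRA3 (-1.23), PSG1 (-1.27) and ALDH1A3 (-1.31) below it, and NEDD9 (-1.10), FGF9 (-1.06) and GPR155 (-1.05) above it. Likeness over a single difference says only that the values are near each other. Each of these 6 was above the filter on both arrays, unlike CSGALNACT1.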

How the data were processed

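Gene expression was measured in 2 SW480 samples, 1 array each. The deposited table holds the authors' log2 values, 1 per probe set and array. They come from RMA, according to the submitters' processing notes, a method that corrects the background, gives the arrays a common distribution and summarises probes on a log scale, so that a shift of all transcripts would not be seen. No RMA version or genome build is given in the sources used here. Scanner files were not used here.

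Probe sets with exactly 1 symbol (19460 of 33297; 1754 had several and 12083 none) were named through the platform annotation. Symbols were updated by Entrez identifier in a RefSeq table (GRCh38.p14), which held 19429 of them. No probe set with several symbols held a member. A gene with several probe sets was represented by the one with the highest mean. Genes whose higher value was at least 5.55 were tested (11548), and 6869 were dim. The number of arrays limits the precision, and no p-value can be given. Named genes are the 10 members, TFAP2E, the 2 highest and 2 lowest tested genes of each list and those past 1.5-fold, the 3 genes next to CSGALNACT1 on each side by difference and by gene order. Other list genes, and the markers, are named for their role, after their values were seen. The members and lists were chosen with earlier results of these data known. Alternatives were 3 scalings, 2 filters, the mean of probe sets, a floor and 2 thresholds. The counting was tested on simulated data. Python 3.11.15, pandas 2.3.3 and statsmodels 0.14.6 were used.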

Additional observations from a re-analysis of the deposited data

How the results depend on the processing

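The CSGALNACT1 difference was -1.17 to -1.14 over 7 alternatives, of which 4 (the mean of probe sets, both filters and the floor) cannot change it by construction and left it as reported, so this range says little about its stability. For the 10 members together 70 of 70 values stayed within 0.219 (1 SD over all tested genes) of the value reported, with the same limit for members with 1 probe set. CSGALNACT1 left the count of members lower at 2-fold, which then was 0, with the filter at the 75th percentile, which removes it, and with a threshold of 3-fold. The counts of 13 lower and 10 higher genes became 8 and 5 with that filter, 70 and 103 at 1.5-fold and 2 and 2 at 3-fold, as these settings are built. Under that filter the median of the dermatan sulfate list was -0.067, on CHST14 alone, and that of the hyaluronan list -0.033, on CEMIP2 and HMMR alone. The other 87 of 89 list medians moved by less than 0.219. This limit is a spread of single genes and is wide for a median, so signs could change within it. With the filter at the 75th percentile the median of the chondroitin sulfotransferases went from 0.10 to -0.12. That of the chondroitin sulfate core proteins went from 0.06 to -0.05. The median of all tested genes, 0.04, was 0.07 with centring, 0.02 with quantile normalization and 0.01 with the loess trend removed. Counts of genes by sign under other scalings, and the chain-building list without CSGALNACT1, were added after the data were seen. No paired analysis was possible because no group holds more than a single array.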

Other observations

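Hyaluronan, the unsulfated relative of chondroitin sulfate, is made at the plasma membrane from nucleotide sugars and needs no core protein. In its list 4 of 5 tested genes were lower in TFAP2E cells, with a median of -0.50 beside 39.5% below 0 and a median of 0.04 for all tested genes. HYAL2, at 6.64 on both arrays, and CD44 (0.06) are also hyaluronan genes but were counted in other lists. Of the 6 genes listed, 5 were among the named genes of the array. Both the count and the median thus depend on which genes the list holds. The list was chosen with earlier results of these data known, so neither is support for a difference. The count of 4 was the same under each of the 3 other scalings, where the median was -0.52 to -0.48. These scalings move the values little, so this is no support for the count. With the filter at the 75th percentile, which leaves CEMIP2 and HMMR alone, the median was -0.033. The hyaluronan-degrading protein CEMIP read 6.29 on the TFAP2E array and 7.23 on the empty vector array (-0.94). The hyaluronan synthases HAS2, at 6.60 in TFAP2E cells and 7.26 in empty vector cells (-0.67), and HAS3, at 5.92 in TFAP2E cells and 6.43 in empty vector cells (-0.50), were lower too. CEMIP2, a relative of CEMIP at the cell surface, read 8.83 in TFAP2E cells and 9.11 in empty vector cells (-0.27), and HMMR, a hyaluronan-binding protein of the mitotic spindle, read 8.58 in TFAP2E cells and 8.37 in empty vector cells (0.21). CEMIP and HAS2 were lower past 1.5-fold, as were 0.606% of all tested genes, and none of the 5 passed 2-fold. All 5 were above the filter on both arrays, and none has a replicate.

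Some probe sets had exactly the same value on both arrays, 1379 of the 33297 (4.14%) and 159 of the 11548 tested genes (1.38%). None of the 10 chondroitin sulfate genes was among them, whereas PSD3 near CSGALNACT1 and EXTL2 of the heparan sulfate list, at 5.64 on both arrays, were among the tested genes with equal values.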
